A study of Caenorhabditis elegans with 12 samples.

Results

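The genes described here were 17 protein-coding genes of Caenorhabditis elegans that carry only a sequence name, such as D1086.12, and that were highest at the bean stage in wild-type embryos. They were chosen by their values in the wild-type libraries. Each had 20 or more CPM (its count divided by the sum of all gene counts of the library, times 1000000) in both wild-type bean libraries, and its mean there was at least 4 times the means at the 190-cell and 2-fold stages, with 0.5 CPM added to every mean. A further 3 sequence-named genes were left out by name beforehand, on a basis that is not stated. The 17 came from the remaining 8741 sequence-named protein-coding genes among the 20362 genes in the files. Since wild-type values chose the genes, the wild-type course is given as a description. Only the miR-51Fam null libraries, whose values the CPM limits did not use, were tested.

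Polyadenylated mRNA of whole embryos was read by QuantSeq in 12 libraries, 2 for each genotype at each of 3 stages. miR-51Fam null embryos came from strain MLC1800, with the genotype nDf67, n4100 IV; nDf58 X; lucEx1057, and wild-type embryos came from strain N2. The deletions take out all 6 miRNA genes of the family (mir-51 to mir-56). lucEx1057 is an extrachromosomal array that carries part of the family together with fluorescent markers. How embryos without the array were picked was not analysed here, nor were the levels of the deleted miRNAs. Embryos of both strains were gathered as 2-cell embryos at 20 °C, grown untreated to time points labelled 190-cell, bean or 2-fold, and pooled at 50 per library. The paper describes failed elongation in null embryos, and the form of those collected as 2-fold was not examined here. No batch is given for the 12 libraries among the labels used here.

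At the bean stage the epidermis has enclosed the embryo and elongation begins. The actin bundles of the epidermis then tighten, muscle takes over part of the work, and at the 2-fold stage the embryo has folded back along its own length inside the eggshell, under an apical extracellular matrix that holds its shape. A sequence name gives the clone on which a gene was found and its place in the order of predicted genes, and it stays in use for genes that have received no symbol. None of the sources used here gives these 17 genes a product or a function, so each is described by its position, its size and its values. QuantSeq primes on the poly(A) tail and reads the 3′ end of a transcript, so long and short genes give comparable counts per transcript.

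Reads assigned to genes numbered 887059 to 9558104 in 11 libraries and 11081 in miR-51Fam null 190-cell replicate 1, where 3231 genes were detected against 7287 to 11531 in the others. A single read in that library equals 90.2 CPM, and 15 of the 17 genes had no read there. Reads may be repeat copies of fewer molecules. Under that assumption 20 CPM stood for 2.32 and 5.01 molecules in the wild-type bean libraries, and the 17 genes for 3.24 to 35.3 molecules in replicate 1 and 5.46 to 48.9 in replicate 2. A group without reads was given a floor of 3 estimated molecules summed over its 2 libraries. That floor was 25.2 CPM at the null 190-cell stage, 8.30 CPM at the null bean stage and 9.90 CPM at the null 2-fold stage, and it covers counting error only. Markers of the embryonic tissues were present at the bean stage in both genotypes: all 7 epidermal genes listed (among them lin-26 and ajm-1) had reads, with summed levels of 1640 to 1925 CPM in null and 1461 to 1600 CPM in wild-type libraries. Body muscle genes summed to 384 to 440 CPM in null and 308 to 323 CPM in wild-type bean libraries. The 5 gut genes listed summed to less in null bean libraries, 63.6 to 74.2 CPM against 87.8 to 115.6 CPM in wild-type ones. Among them end-3 had no reads at any stage. In whole embryos, fewer cells of a type and less RNA per cell cannot be told apart.

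In wild-type embryos the 17 genes had bean-stage means of 24.8 to 249.5 CPM, with a median of 64.2 CPM. The bean mean exceeded the larger of the other stage means by 4.25 to 17.2 times, with a median of 5.88. D1086.12 (WBGene00044082, chromosome V, 14101186 to 14102821, plus strand, WBcel235) led both lists. It had 0 and 0 CPM at the 190-cell stage, 304 and 195 CPM at the bean stage and 13.4 and 14.7 CPM at the 2-fold stage. M03D4.4 (WBGene00019751, chromosome IV, 6121773 to 6127302, minus strand) was close to it at the bean stage, with 18.2 and 43.2 CPM at the 190-cell stage, 280 and 149 CPM at the bean stage and 14.95 and 14.7 CPM at the 2-fold stage. These were the only genes of the 17 above 100 CPM in both wild-type bean libraries. C54D10.13 (WBGene00045400, chromosome V, 12431370 to 12432289, minus strand) came next, with 0 and 2.92, then 113 and 57.3, then 15.5 and 12.4 CPM over the 3 stages in order. At the other end Y51H7C.10 (WBGene00021788, chromosome II, 1420322 to 1423760, minus strand) had 0 and 4.68 CPM at the 190-cell stage, 27.9 and 21.8 CPM at the bean stage and no reads at the 2-fold stage.

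The low sides of the wild-type peak differed among the genes. In 9 of them the 190-cell mean was above the 2-fold mean, and in 8 the 2-fold mean was the higher. D1086.12, C45B11.6 (WBGene00045379, chromosome V, 11044067 to 11045743, plus strand) and VC5.2 (WBGene00020908, chromosome V, 7085956 to 7088854, plus strand) had no read in either wild-type 190-cell library and 2.25 to 16.9 CPM at the 2-fold stage. For C45B11.6 the wild-type values were 0 and 0 CPM, then 83.6 and 75.8 CPM, then 10.5 and 16.9 CPM. C47E12.13 (WBGene00008156, chromosome IV, 10005497 to 10006892, minus strand) and Y51A2D.21 (WBGene00044210, chromosome V, 18571833 to 18573026, plus strand) had the lowest 2-fold levels relative to their peak apart from Y51H7C.10. C47E12.13 had 11.8 and 0.584 CPM, then 72.7 and 76.7 CPM, then 5.26 and 1.13 CPM in wild-type embryos. Y51A2D.21 had 0 and 9.35 CPM, then 67.2 and 73.4 CPM, then 0 and 3.38 CPM. The wild-type bean libraries also differed from each other, since replicate 1 was above replicate 2 in 14 of the 17 genes, by a median of 1.48 times.

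The cut-offs of the rule passed close to several genes. Just inside the 4-fold limit were Y71A12B.12 with a ratio of 4.25, Y54E10A.17 with 4.30 and R07E5.11 with 4.30, and just outside were T02E9.5 with 3.93, F55A11.8 with 3.69 and F23C8.14 with 3.44. T02E9.5 was a far more abundant gene than any of the 17, at 1477 and 1333 CPM in the wild-type bean libraries. On the limit of 20 CPM, Y51H7C.10 was just inside with 21.8 CPM in its lower bean library, followed by T11B7.2 with 36.3 and VC5.2 with 36.5 CPM. T19D7.6 with 14.7, C01G10.5 with 14.5 and C04A2.15 with 12.8 CPM were just outside.

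**Figure D1:**
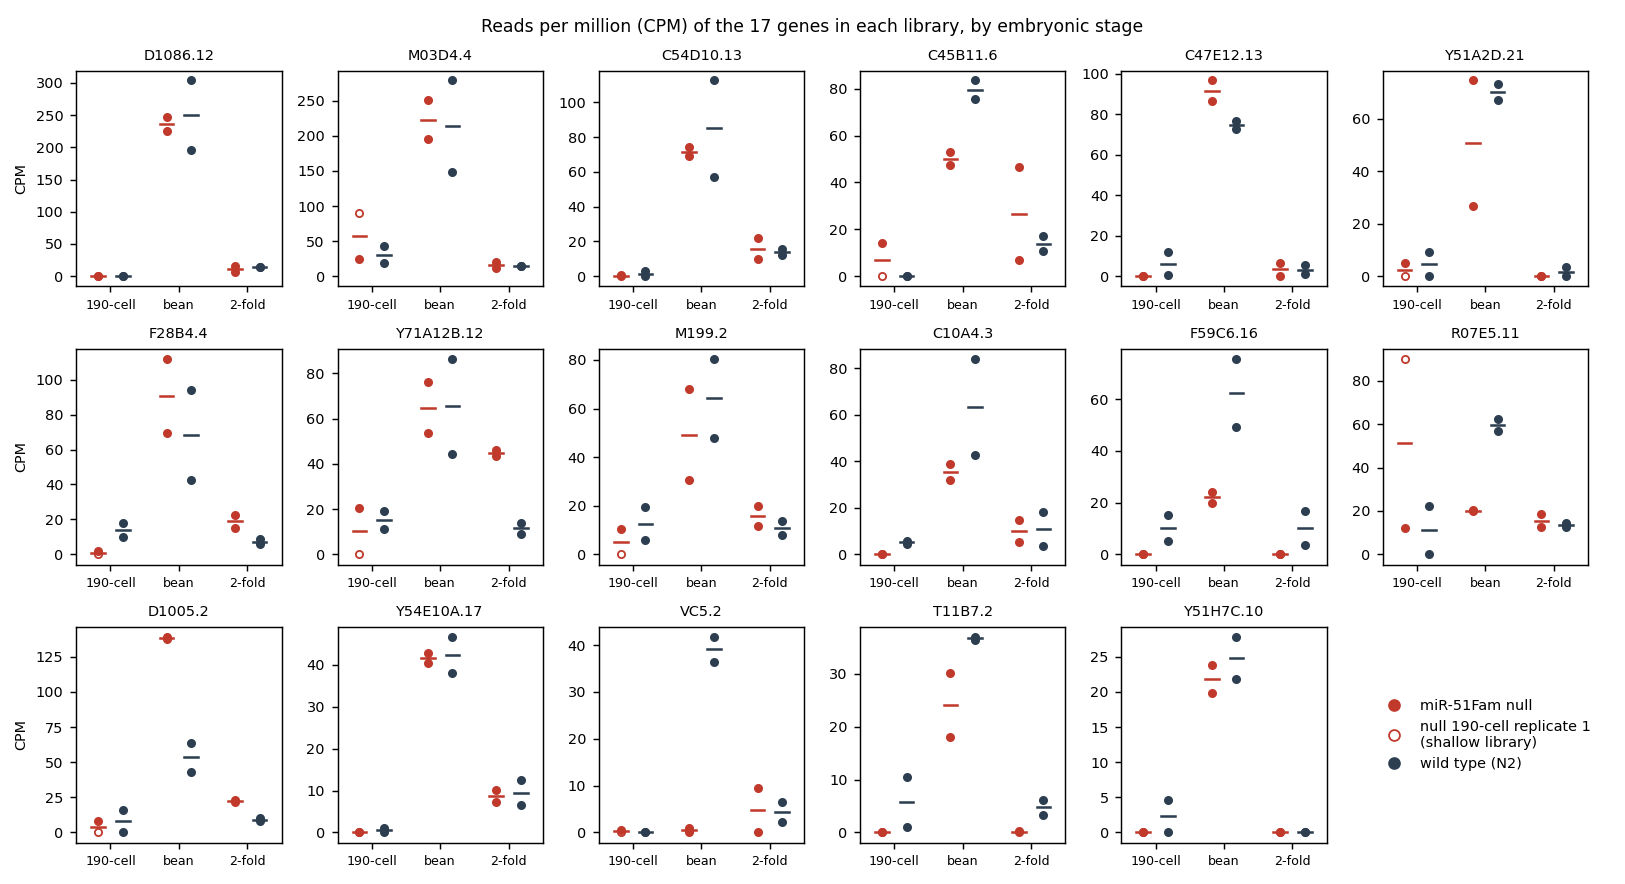
Level of each of the 17 genes in CPM (linear axis, own scale for each gene) in every library at the 190-cell, bean and 2-fold stages. Points are libraries (miR-51Fam null in red, left of wild type in blue, 2 each), bars are their means, and open points mark null 190-cell replicate 1, where a single read equals 90.2 CPM. The bean libraries stand highest in null embryos too for 15 genes, and VC5.2 is near 0 there.

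In miR-51Fam null embryos the bean libraries held the highest values of most of the 17 genes, and 3 genes passed the tests of both a rise to the bean stage and a fall after it. Both null bean libraries were above all 4 other null libraries in 15 of the 17 genes, while over all 10570 genes tested in the null libraries this held for 8.45%. The exceptions were VC5.2 and R07E5.11. That count includes F59C6.16, Y51H7C.10 and T11B7.2, whose rise was not detectable at this depth, and 15 of the 17 had no read in the shallow 190-cell library. In the fit of the 6 null libraries alone, 7 of the 17 rose to the bean stage relative to the 190-cell stage (edgeR quasi-likelihood test, Benjamini-Hochberg adjusted p under 0.05), against 6.46% of all genes. In this step 0 of the 17 fell (0 also with DESeq2 and at an unadjusted p under 0.05), against 122 of 10570 genes. The 7 genes of the 17 without reads in either null 190-cell library could not be called lower. Of the 17, 4 fell at the 2-fold stage relative to the bean stage, against 4.04% of all genes. In this second step 0 rose (0 also with DESeq2 and at an unadjusted p under 0.05), against 733 of 10570 genes. Nothing is read from these counts of 0. With TMMwsp scaling, or with no filter on low counts, 7 fell, against 446 of 10570 and 565 of 11986 genes in these settings. Only D1086.12, M03D4.4 and D1005.2 passed both tests, which is 3 of 17 (17.6%) against 0.265% of all genes. At an unadjusted p under 0.05, 13 of the 17 and 1378 of 10570 genes were higher at the bean stage than at the 190-cell stage, and 9 of the 17 and 1003 of 10570 were lower at the 2-fold than at the bean stage. The 13 include the 3 genes whose rise was not detectable. Among the genes with reads in both groups compared, the median log2 difference was 2.93 for bean against 190-cell (n = 10) and -1.96 for 2-fold against bean (n = 14). The medians of the fitted values were 5.89 and -2.03 over all 17, against 0.30 and 0.11 over all 10570 genes tested. A fitted value against a group without reads depends on the prior count, and with such groups of the 17 set at their bound their medians were 2.03 and -1.92. The calls of the first step rest on null 190-cell replicate 2. Without it, when the shallow replicate 1 stood alone for the stage, 0 of the 17 (2 at an unadjusted p under 0.05) and 139 of 10327 genes were called higher at the bean stage.

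D1086.12 had the smallest adjusted p of the 17 genes in both steps. In null embryos it had no reads in either 190-cell library, 248 and 225 CPM at the bean stage and 14.99 and 6.17 CPM at the 2-fold stage. All bean libraries of both genotypes stood between 195 and 304 CPM, and no other library exceeded 14.99 CPM. The null bean level was at least 9.37-fold higher than the 190-cell floor (adjusted p = 6.063e-05). Here and below, an adjusted p beside a floor is that of the fitted step against no change, and not a test of the bound. For D1086.12 the 2-fold stage was lower than the bean stage by a log2 difference of -4.28 (SE 0.69, adjusted p = 0.0002634). Its rise was called under every alternative run except the omission of null 190-cell replicate 2, which gave an adjusted p of 0.2858 (range over the alternatives, 2.559e-11 to 0.2858). The gene has 4 exons and a coding length of 555 bases.

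M03D4.4 behaved alike in the deeper libraries. In null embryos it had 90.2 and 24.9 CPM at the 190-cell stage, 195 and 251 CPM at the bean stage and 11.7 and 19.6 CPM at the 2-fold stage. The first of these values is 1 read of the shallow library. The bean stage was above the 190-cell stage by a log2 difference of 3.27 (SE 0.77, adjusted p = 0.009103), and the 2-fold stage was lower than the bean stage (-3.57, SE 0.62, adjusted p = 0.0004889). The rise did not pass without null 190-cell replicate 2 (adjusted p = 0.7155) or without null bean replicate 2 (adjusted p = 0.08893), and ranged from 0.0003837 to 0.7155 over the alternatives. With 8 exons and 1515 coding bases, M03D4.4 was among the longer of the 17 genes.

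D1005.2 (WBGene00016996, chromosome X, 1459022 to 1462798, plus strand, 7 exons) had the largest null peak relative to wild type, with a ratio of bean means of 2.58. In null embryos it had 0 and 8.51 CPM at the 190-cell stage, 139 and 138 CPM at the bean stage and 23.0 and 21.8 CPM at the 2-fold stage. Wild-type embryos had 15.9 and 0 CPM, then 63.6 and 43.1 CPM, then 8.03 and 10.15 CPM. Each null bean library thus held more than either wild-type bean library, and the same was true at the 2-fold stage. Within the null libraries the rise had a log2 difference of 4.32 (SE 0.96, adjusted p = 0.005942) and the fall one of -2.38 (SE 0.69, adjusted p = 0.02955). The rise did not pass without null 190-cell replicate 2 (adjusted p = 0.364, range over the alternatives 0.0005265 to 0.364). The fall did not pass with DESeq2 (0.1519) or in the fit of all 12 libraries (0.1231), nor without null bean replicate 1 or 2 (0.0913 and 0.1674) or null 2-fold replicate 1 or 2 (0.08311 and 0.08403), with a range of 0.001643 to 0.1674.

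The genes C54D10.13, F28B4.4, C47E12.13 and Y54E10A.17, passed the test of the first step only, which adds 4 to the 3 above. C54D10.13 had 0 and 0.608 CPM at the null 190-cell stage, the second value being 1 read, 68.8 and 74.5 CPM at the null bean stage and 9.87 and 21.7 CPM at the null 2-fold stage. Its rise had a log2 difference of 7.04 (SE 1.65, adjusted p = 0.008971), and the reads pooled over libraries gave a ratio of 121 (exact 95% bounds for counting error, 21.6 and 4781). F28B4.4 (WBGene00017893, chromosome X, 3206936 to 3209623, minus strand) had 0 and 1.82 CPM, then 69.3 and 112 CPM, then 14.99 and 22.7 CPM in null embryos. Its rise had a log2 difference of 5.89 (SE 1.33, adjusted p = 0.006846) on 3 reads at the 190-cell stage, a pooled ratio of 55.2 with bounds of 18.8 and 268. The bounds of both genes count every read as independent, and repeat reads of a molecule would widen them. An estimated 15.1 reads stood for a molecule in null 190-cell replicate 2, so these few reads may come from the same molecule. At the stage before the peak both genes thus had few or no reads in each null library. Neither fall passed the test, at -1.92 (SE 0.93, adjusted p = 0.2199) for C54D10.13 and -2.03 (SE 0.83, adjusted p = 0.1327) for F28B4.4. Without null 190-cell replicate 2 the rises no longer passed (adjusted p = 0.8626 for C54D10.13 and 0.7192 for F28B4.4, from 0.0006552 and 0.0004744 at the low end of the alternatives).

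C47E12.13 did not exceed 11.8 CPM outside the bean stage in either genotype. Null embryos had no reads at the 190-cell stage, 86.8 and 96.8 CPM at the bean stage and 0 and 6.70 CPM at the 2-fold stage. The null bean level was at least 3.64-fold higher than the 190-cell floor (adjusted p = 0.036), and the fall had a log2 difference of -4.40 (SE 1.34, adjusted p = 0.05476). The rise of C47E12.13 did not pass with DESeq2 (0.0514) or with library totals (0.06792), and its fall passed in 5 of 8 other settings and in 4 of the 6 fits that left out 1 library, with adjusted p of 3.771e-05 to 0.1351. Y54E10A.17 (WBGene00021835, chromosome I, 3206762 to 3210272, plus strand) had close values in both genotypes. It had 0 and 0, then 42.7 and 40.4, then 7.31 and 10.04 CPM in null embryos and 0 and 1.17, then 46.6 and 37.9, then 6.51 and 12.4 CPM in wild-type embryos. Its null bean level was at least 1.65-fold higher than the 190-cell floor (adjusted p = 0.03314), a call lost with a replicate block (0.06291), in the fit of all 12 libraries (0.06591) and with molecule-scaled counts from a total of 5 (0.07219). DESeq2 gave no adjusted p for this rise. Neither rise passed without null 190-cell replicate 1 (adjusted p = 0.1129 for C47E12.13 and 0.0519 for Y54E10A.17) or without replicate 2 (adjusted p = 1 for each), and the lowest values over the alternatives were 2.297e-05 for C47E12.13 and 0.006369 for Y54E10A.17.

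Y51A2D.21 passed the test of the second step only. In null embryos it had 0 and 4.86 CPM at the 190-cell stage, 26.7 and 74.7 CPM at the bean stage and no reads at the 2-fold stage. The bean level was at least 5.12-fold higher than the 2-fold floor (adjusted p = 0.001327, and 0.05649 without null bean replicate 2, the highest of the alternatives, which began at 5.829e-06). The null bean libraries of this gene differed by more than its wild-type ones, which had 67.2 and 73.4 CPM.

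The remaining genes passed neither test, and 3 of them were too low at the bean stage for a rise to be seen. F59C6.16 (WBGene00077764, chromosome I, 10514194 to 10514364, plus strand), a gene of a single exon with 168 coding bases, had reads in null embryos at the bean stage alone, at 24.2 and 19.8 CPM. Y51H7C.10 showed the same course with 19.9 and 23.8 CPM at the null bean stage and no reads in the other null libraries. T11B7.2 (WBGene00011707, chromosome IV, 8843426 to 8844557, minus strand) had 30.1 and 18.1 CPM at the null bean stage, no reads at the 190-cell stage and 1 read, 0.366 CPM, at the 2-fold stage. For these 3 genes the null bean mean was below the 190-cell floor of 25.2 CPM, so the rise was not detectable at this depth. The adjusted p of the fall was 0.0562 for F59C6.16, 0.05561 for Y51H7C.10 and 0.1115 for T11B7.2. C10A4.3 (WBGene00015664, chromosome X, 7405693 to 7408780, plus strand) missed the first test narrowly, with no reads at the 190-cell stage, 38.8 and 31.8 CPM at the bean stage and 5.48 and 14.5 CPM at the 2-fold stage in null embryos (adjusted p = 0.05098). It passed in 4 of the 6 fits that left out 1 library each.

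Y71A12B.12, C45B11.6 and M199.2 also passed neither test. Their null rises had log2 differences of 2.03 (SE 0.95, adjusted p = 0.2835), 2.22 (SE 1.24, adjusted p = 0.4144) and 2.59 (SE 1.30, adjusted p = 0.3322) in that order. Y71A12B.12 (WBGene00013509, chromosome I, 14004428 to 14008484, plus strand, 9 exons and 2163 coding bases, the longest of the 17) had 0 and 20.7 CPM, then 76.1 and 53.5 CPM, then 46.1 and 43.6 CPM in null embryos. Its wild-type 2-fold libraries had 13.8 and 9.02 CPM, and the null fall had a log2 difference of -0.27 (SE 0.76, adjusted p = 0.8872). C45B11.6 had 0 and 13.97 CPM, then 52.8 and 47.5 CPM, then 6.95 and 46.5 CPM in null embryos, so its 2-fold libraries lay far apart (-0.62, SE 0.99, adjusted p = 0.7646). M199.2 (WBGene00010951, chromosome IV, 15108775 to 15110929, plus strand) had 0 and 10.3 CPM, then 67.9 and 30.7 CPM, then 11.7 and 20.0 CPM. The null fall of M199.2 had a log2 difference of -1.35 (SE 1.03, adjusted p = 0.4592).

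VC5.2 and R07E5.11 were the genes without a bean-stage maximum over all 4 other null libraries. VC5.2 had 0 and 0.608 CPM at the 190-cell stage, 0.970 and 0 CPM at the bean stage and 9.51 and 0 CPM at the 2-fold stage in null embryos, against 0 and 0, then 41.8 and 36.5, then 6.51 and 2.25 CPM in wild-type embryos. Its null bean libraries held 2 reads in all, and its wild-type bean libraries 146, a ratio of 0.00705 per assigned read. High wild-type bean values were a condition of the choice, so this ratio is a description and was not tested. R07E5.11 (WBGene00011117, chromosome III, 4414728 to 4415235, minus strand) had 90.2 and 12.2 CPM at the 190-cell stage, 19.9 and 20.4 CPM at the bean stage and 12.4 and 18.5 CPM at the 2-fold stage in null embryos. The first value is again 1 read of the shallow library. Wild-type embryos had 0 and 22.2, then 62.4 and 56.8, then 14.5 and 12.4 CPM. The null steps of R07E5.11 were 0.21 (SE 1.54, adjusted p = 1) and -0.13 (SE 1.23, adjusted p = 0.9812) on the log2 scale.

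**Figure D2:**
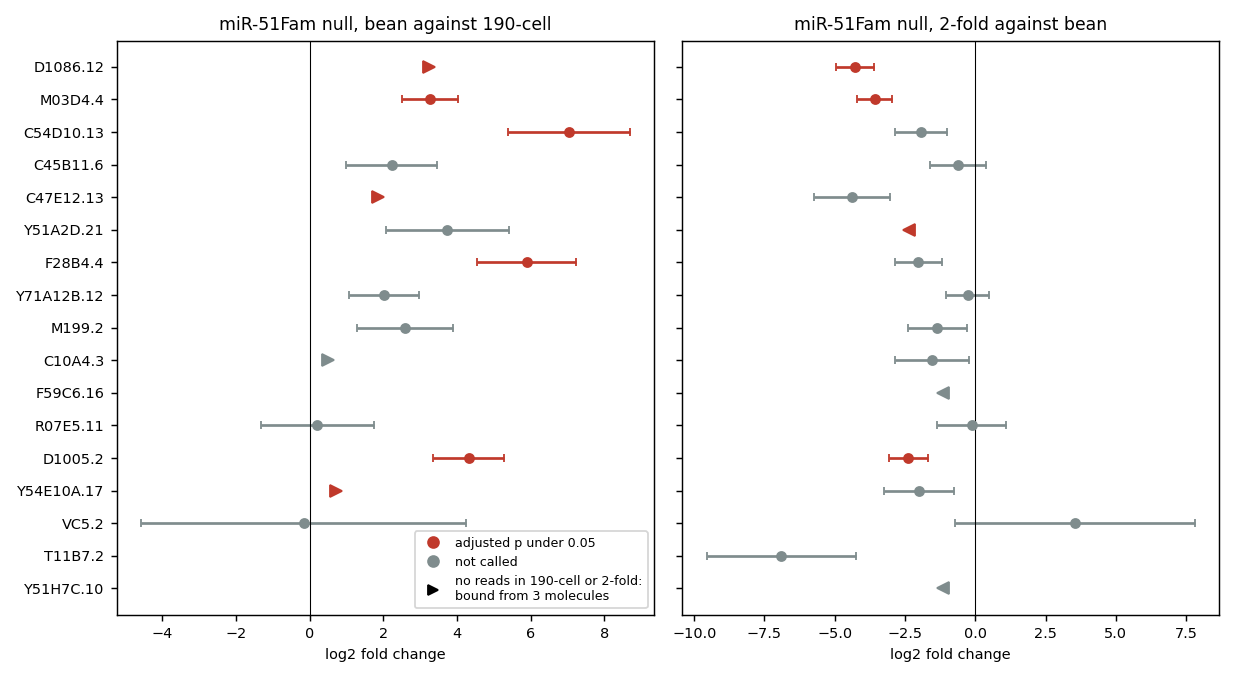
Log2 difference of each of the 17 genes in the fit of the 6 miR-51Fam null libraries, for bean against 190-cell embryos (left) and 2-fold against bean embryos (right). Circles are fitted values with bars of 1 SE, triangles are bounds from the 3-molecule floor where the 190-cell or 2-fold group had no reads, and red marks an adjusted p under 0.05, which 7 genes reached on the left and 4 on the right. F59C6.16, T11B7.2 and Y51H7C.10 have no point on the left because their bean mean was below the floor.

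Applied to the null libraries, the same rule was met by 7 of the 17 genes (41.2%): D1086.12, C54D10.13, C47E12.13, Y51A2D.21, F28B4.4, D1005.2 and Y54E10A.17. It picked 23 sequence-named genes there, so the 7 made up 30.4% of that list. The level limit held back some of the others, since 12 of the 17 reached 20 CPM in both null bean libraries. The null bean mean was 4 or more times the larger other mean in 10 genes, and the ratio had a median of 4.58 and a range of 0.187 for VC5.2 to 45.1 for F59C6.16. These 10 include F59C6.16, Y51H7C.10 and T11B7.2, which had no null read or a single one outside the bean stage, so that their ratios are set largely by the 0.5 CPM added. Against the 2-fold floor, the null bean level was at least 2.23-fold higher for F59C6.16 and at least 2.21-fold higher for Y51H7C.10. M03D4.4 had a null ratio of 3.85, or 8.79 without null 190-cell replicate 1, which would bring the genes that met the rule to 8, a setting chosen after seeing the data. R07E5.11 had a ratio of 0.399, or 1.29 without that library.

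**Figure D3:**
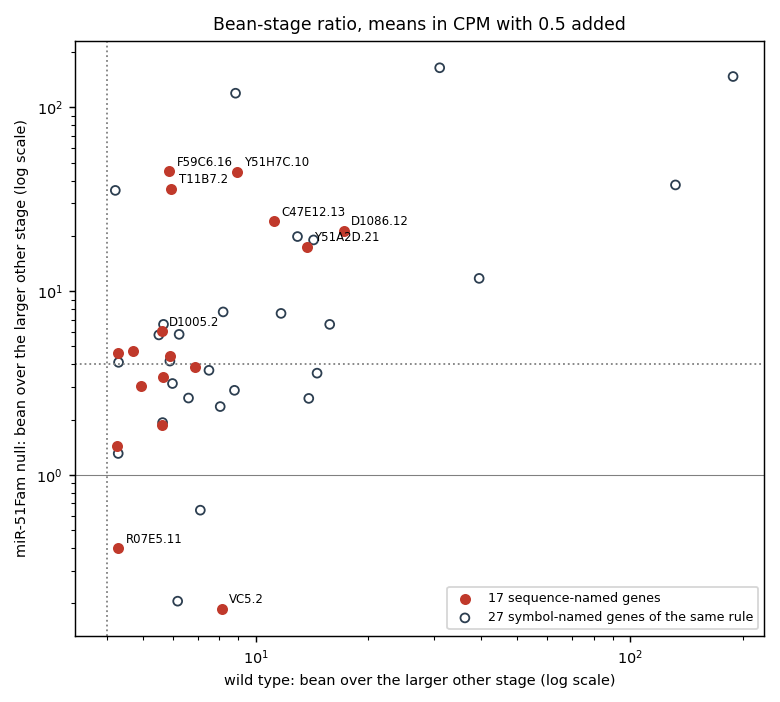
Ratio of the bean mean to the larger of the 190-cell and 2-fold means, with 0.5 CPM added, in miR-51Fam null embryos (vertical, log scale) against wild-type embryos (horizontal, log scale). Filled circles are the 17 sequence-named genes and open circles the 27 symbol-named genes of the same rule, dotted lines mark a ratio of 4 and the solid line a ratio of 1. All points lie right of the vertical line by choice, 10 of the 17 lie above the dotted horizontal line, and VC5.2 and R07E5.11 lie below 1.

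The null levels are given here beside the wild-type libraries that chose the genes. The ratio of the null to the wild-type bean mean had a median of 0.845 over the 17 genes and of 0.815 over the other 1297 sequence-named genes at 20 CPM or more in both wild-type bean libraries. At the bean stage both null libraries were below both wild-type ones in 6 genes (35.3%), namely C45B11.6, C10A4.3, F59C6.16, R07E5.11, VC5.2 and T11B7.2, against 18.9% of 12062 genes. Both were above in 2 genes, D1005.2 and C47E12.13 (11.8%), against 14.6% of genes, and the libraries overlapped in 9. At the 2-fold stage F59C6.16 and T11B7.2 were lower in null embryos, 2 of 17 against 29.7% of genes. F28B4.4, Y71A12B.12 and D1005.2 were higher there, 3 of 17 against 13.7%. No test was made of these differences and nothing is read from the counts, since high wild-type bean values were a condition of the choice.

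Transcripts of genes that are active in the mother differed between the genotypes in the same libraries. The 5 yolk protein genes listed, vit-2 to vit-6, which are made in the adult gut, summed to 0.381 to 18.4 CPM in null and 153 to 229 CPM in wild-type bean libraries. At the 2-fold stage the sum was 0 to 0.209 CPM in null and 783 to 2828 CPM in wild-type libraries. Of 6 genes of sperm and the adult germ line, the 4 sperm protein genes had no reads in any bean library, while rme-2 and puf-5, an oocyte yolk receptor and an oocyte RNA-binding protein, brought the sum to 0 to 130 CPM in null and 188 to 254 CPM in wild-type bean libraries. Germ line precursor genes summed to 19.4 to 80.5 CPM in null and 307 to 511 CPM in wild-type bean libraries. The part of these differences in the levels of the 17 genes was not tested.

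**Figure D4:**
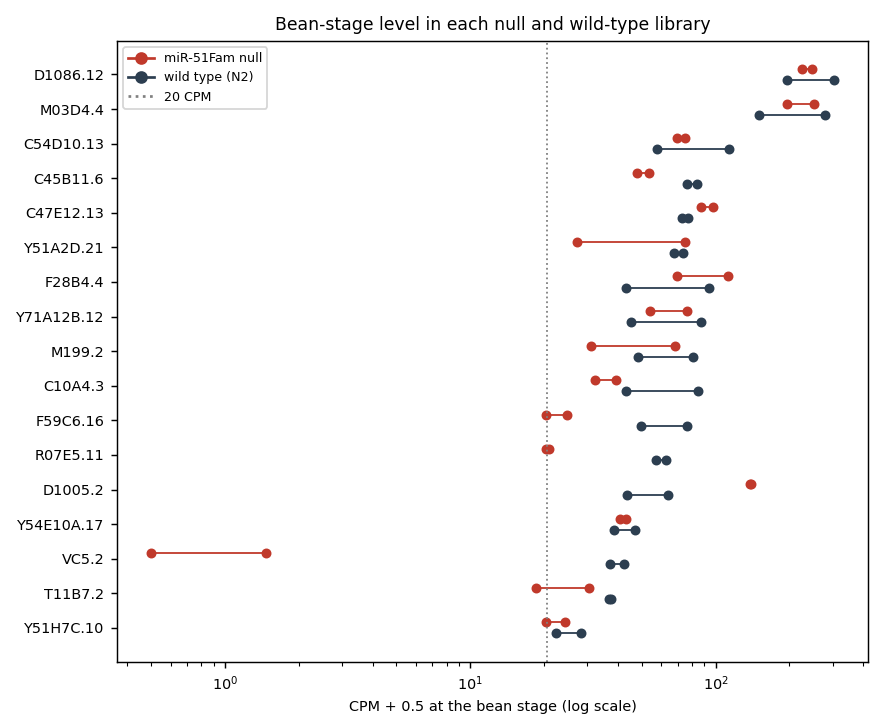
Level at the bean stage of each of the 17 genes in every bean library, as CPM with 0.5 added (log scale), for miR-51Fam null (red, upper) and wild-type embryos (blue, lower). Lines join the 2 libraries of a genotype and the dotted line marks the 20 CPM that the choice required in wild-type embryos. The null libraries of D1005.2 lie at 139 and 138 CPM, above the wild-type ones, and those of VC5.2 at 0.970 and 0 CPM.

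The genes were spread over the genome. Chromosome V held 5, chromosome IV 4, chromosomes I and X 3 each and chromosomes II and III 1 each, and of the 8741 sequence-named protein-coding genes chromosome V likewise held the most (23.8%). No 2 of the 17 lay within 10 kb of each other. Of the 89 counted protein-coding genes within 10 kb of them, 26 had a wild-type bean mean of 20 CPM or more and 0 met the rule. The nearest neighbours of D1086.12, D1086.1 and D1086.9, lie 495 and 1449 bases away and had no reads in any library. D1086.8, which lies 4071 bases away on the same strand and was named after its values were seen, averaged 0, 41.7 and 1.26 CPM over the 3 stages in null embryos and 0, 21.6 and 7.97 CPM in wild-type embryos. It met the rule in the null libraries but not in the wild-type ones, where its ratio was 2.61 and its lower bean library had 12.3 CPM. The 17 genes had a median coding length of 594 bases and 4 exons, against 879 bases and 5 exons for the other 1297 sequence-named genes at 20 CPM or more.

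Of the 17 genes, 6 overlap a protein-coding gene on the opposite strand. The strand setting of the counting is not given in the sources used here, so reads from the shared stretch cannot be told apart. F59C6.16 lies wholly, over 171 bases, within che-13, a gene of cilium assembly. che-13 itself averaged 0, 0 and 8.08 CPM over the 3 stages in null embryos and 0, 6.157 and 18.8 CPM in wild-type embryos. Shorter overlaps were those of C47E12.13 with sars-1 (82 bases), C45B11.6 with dhs-18 (39 bases) and D1005.2 with D1005.6 (35 bases). R07E5.11 overlaps mpc-1 by 21 bases, and M03D4.4 overlaps zen-4 by 5 bases. All of these short overlaps lie at the 3′ ends of both genes, which QuantSeq reads, so their length does not exclude shared reads. D1005.6 had no reads. dhs-18 averaged 108, 40.1 and 13.7 CPM over the stages in null embryos and 33.6, 11.04 and 3.95 CPM in wild-type embryos. The course of dhs-18 is opposite to the rise of C45B11.6. sars-1 averaged 138.99, 142.27 and 71.73 CPM in null and 164.22, 170.36 and 116.003 CPM in wild-type embryos. mpc-1 averaged 53.93, 106.42 and 163.06 CPM in null and 64.96, 127.84 and 110.57 CPM in wild-type embryos. sars-1 and mpc-1 were thus highest at the bean stage in wild-type embryos, as sars-1 was in null embryos. zen-4 fell from the 190-cell stage on in both genotypes. What these partners add to the counts was not tested.

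The rule applied to genes with a symbol gave 27 of 10877. Among them were ces-2, fbn-1 and the proneural factor hlh-3. ces-2, a bZIP factor that acts in programmed cell death, had null means of 1.82, 1946 and 12.7 CPM over the 3 stages and wild-type means of 0.118, 1231 and 6.03 CPM. fbn-1, a fibrillin-like protein of the embryonic apical matrix, had a null bean mean of 379 CPM and a wild-type bean mean of 284 CPM. In the null libraries 11 of the 27 rose to the bean stage, 11 fell at the 2-fold stage and 10 did both. These counts stand beside 7, 4 and 3 of the 17, and 6.46%, 4.04% and 0.265% of all genes tested. The wild-type bean means had a median of 83.6 CPM over the 27 and 64.2 CPM over the 17. How far this difference in level accounts for the counts was not tested. For ces-2 the null steps were 9.31 (SE 0.62, adjusted p = 1.906e-08) and -7.05 (SE 0.43, adjusted p = 2.519e-09), larger than any fitted step of the 17 with reads in both groups.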

How the data were processed

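The authors extracted molecular identifiers, trimmed the QuantSeq reads, aligned them to WBcel235 with STAR and deposited 1 table of HTSeq counts per gene for each library, not normalised. The annotation release and strand setting are not given in the sources used here. The 5 summary lines stayed out of library sizes. Reads assigned to genes made up 31.8% to 53.7% of each table and reads mapping to several places 39.3% to 63.5%, so near-identical genes are uncertain. Of 20362 gene IDs, 20116 matched the WBcel235 annotation (Ensembl release 115), which gave biotypes, symbols and positions. The authors' methods describe removal of duplicate reads. The number of reads per molecule was nevertheless estimated from the share of weakly expressed genes (1 to 3 CPM elsewhere) without a read. It came to 1.09 in null 190-cell replicate 1 and lay between 3.68 and 56.8 otherwise.

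Genes with 20 or more counts over the 6 miR-51Fam null libraries were fitted in edgeR 4.0.16 (R 4.3.3) with TMM scaling and 3 stage means, and tested by the two-sided quasi-likelihood F test with Benjamini-Hochberg adjustment over all 10570 genes. The fit was tested on simulated data with known folds, which it returned, although few of the changed genes passed the threshold in the first step. The simulated libraries varied less than the null libraries, whose common coefficient of biological variation was 0.94. The simulation therefore cannot show how the fit performs at the spread of these data. Alternatives were DESeq2 1.42.0, TMMwsp, no filter, all 12 libraries, a replicate block, molecule-scaled counts and omission of each library. The fit of all 12 libraries tested the same null steps. It took part of its spread and scaling from the wild-type libraries that chose the genes. Whether replicates were separate cultures is not stated, so p values measure the spread between these samples only. Named genes were the 15 with the highest wild-type bean mean, those called, those just inside and outside the limits and, as context, symbol-named genes of the rule. The other genes of the 17 and ces-2, fbn-1 and hlh-3 were named after their values were seen. The genes and marker lists were chosen with earlier results of these data known. Motifs, protein identities and sequences were not analysed here.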

Additional observations from a re-analysis of the deposited data

How the results depend on the processing

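Of 450 fits of single genes under the alternatives, 403 kept their side of the threshold, 25 gained a call and 22 lost it, and the estimate had the other sign in 8, none of them called. The number of the 17 genes called higher at the bean stage in null embryos was 7, and 5 to 8 under DESeq2, TMMwsp, no filter, molecule-scaled counts and library totals. The fit of all 12 libraries also gave 7, but it is not independent of the choice of the genes. The number called lower at the 2-fold stage was 4, and 7 with TMMwsp and 7 with no filter, where 446 of 10570 and 565 of 11986 genes were called lower. Both tests were passed by 3 genes, and by 5 with molecule-scaled counts and by 5 when these were kept from a total of 5, an alternative chosen after seeing the data. With molecule-scaled counts 10 of the 17 were tested. Leaving out each library in turn gave 0 to 8 genes for the rise, 3 to 4 for the fall and 0 to 3 for both. Over all genes DESeq2 called 511, 310 and 13 for the rise, the fall and both, molecule-scaled counts 541, 566 and 64 of 5089 (476, 585 and 62 of 8023 from a total of 5), and the fit without null 190-cell replicate 2 139, 356 and 15, against 683, 427 and 28. Scaling to library totals, also chosen after seeing the data, moved the median of all genes by -0.30 for the rise and -0.22 for the fall on the log2 scale. It gave 551 higher and 234 lower genes for bean against 190-cell, against 683 and 122 with TMM, and 557 higher and 611 lower for 2-fold against bean, against 733 and 427 with TMM. Of the 17 genes it called 6, 6 and 3 for the rise, the fall and both, against 551, 611 and 30 over all genes. A replicate block gave 6, 5 and 4 genes for the rise, the fall and both, against 656, 482 and 36 of 10570 over all genes. In the null libraries the deviations of replicate 1 from the stage mean had correlations between stages of 0.0175, -0.0255 and -0.0009. The first and second of these involve the shallow library. Such values cannot tell whether replicates of the same number shared a culture or a preparation. A limit of 3-fold in place of 4-fold gave 29 genes and 6-fold gave 6. TMM-scaled CPM gave 16, of which 15 were among the 17, with R07E5.11 and Y54E10A.17 lost at ratios of 3.42 and 3.49 and R03E9.2 gained at 4.03. The cause of these differences was not tested. Depth limits null 190-cell values most, where 1 read of replicate 1 equals 90.2 CPM.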
